A study of Mus musculus with 6 samples.

Results

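Aminoacyl-tRNA synthetases join each amino acid to the tRNAs that carry it into the ribosome. The mRNAs of 35 of them are described here, 19 cytosolic enzymes and 16 mitochondrial enzymes, among the 55414 Ensembl gene identifiers of the deposited table. They were picked by matching a list of gene symbols to the identifiers, with earlier results of these data known; symbols without the closing 1 are the older names of the cytosolic genes. The cells were TM4, a male mouse testis line used as a model of Sertoli cells, which surround and nourish germ cells in the seminiferous tubule. RNA was sequenced from 3 libraries of a group labelled VC and from 3 libraries of a control group. The entry for the agent and the design text name valine, while the titles carry the abbreviation VC, which the labels do not spell out, so the group is called VC here. No dose or exposure time was given, no genetic change was named, and the libraries all came from a single line.

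Depth was 20408425 to 22316853 reads per library, recovered from the deposited values. Of 13 Sertoli markers 7 passed the expression filter, namely Sox9, Gata4, Amh, Dhh, Kitl, Inha and Inhba. Group means in VC and control were 3.70 and 3.01 for Sox9, 21.8 and 19.2 for Gata4, and 116 and 119 for Inhba. Wt1, Fshr, Dmrt1 and Shbg were at 0 in all 6 libraries, and Cldn11 and Clu fell below the filter. The summed level of the 13 was 162 to 170 in VC and 150 to 174 in control. No germ cell marker passed the filter (0 of 7), with Ddx4, Stra8, Kit and Zbtb16 at 0 and a summed level of 0.245 to 0.557 in VC and 0 to 0.204 in control. Of the endothelial markers 1 of 5 was tested, and the summed level was 1.83 to 2.26 in VC and 1.34 to 1.88 in control. For Leydig cell markers 1 of 6 was tested, with a sum of 2.735 to 3.53 in VC and 2.34 to 3.31 in control. For macrophage markers 2 of 6 were tested, with a sum of 61.1 to 71.1 in VC and 55.7 to 65.9 in control. Most of that sum was Cd14, with a mean of 60.2 in VC and 54.2 in control, while Adgre1 was at 0. Markers of peritubular myoid cells, of which 3 of 5 were tested, had a summed level of 580 to 594 in VC and 909 to 989 in control. Acta2 and Myl9 among them fell in VC (limma adjusted p = 0.0111 for both), though limma called Acta2 in 2 and Myl9 in 1 of the 6 fits without 1 library, and neither with the replicate number as a block (adjusted p of 0.103 and 0.107). The part of these markers in the results below was not tested. Nothing in the labels says that the libraries came from separate cultures, so the spread that the p-values rest on may be a technical one.

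Each synthetase activates its amino acid with ATP and transfers it to the matching tRNA, and the enzymes fall into a class I and a class II by the fold of the catalytic domain. Mammalian cells keep separate nuclear genes for most cytosolic and mitochondrial enzymes, while lysyl- and glycyl-tRNA synthetase serve both compartments from a single gene each. Several cytosolic enzymes sit in a multisynthetase complex held by the scaffold proteins Aimp1, Aimp2 and Eef1e1. When charging fails, uncharged tRNA activates the kinase GCN2, which phosphorylates eIF2 and raises translation of the transcription factor ATF4, and many cytosolic synthetase genes are ATF4 targets.

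Promoter sequences are shown for 4 cytosolic members that carried the letters of an ATF4-C/EBP composite element, because this factor is the known link between failed charging and synthetase genes. A RefSeq promoter (build GRCm38.p6, 250 bases before to 50 after the annotated start) was matched for 26 of the 35 genes, 12 cytosolic and 14 mitochondrial. The letters TGATGNAA, searched on both strands, occurred in 5 of the 12 cytosolic promoters (41.7%) and in 0 of the 14 mitochondrial promoters, against 3.97% of 32851 promoters in the table. The stricter letters TGATGCAA occurred in 4 of the 12 cytosolic (33.3%) and 0 of the 14 mitochondrial promoters, against 0.895% of all promoters. Each sequence below has 30 bases, read 5′ to 3′ on the strand of the gene, with the matching letters or their reverse complement in capitals. The coordinates cover all 30 bases, while the start position stated for each gene is that of the first capital letter.
Gars1, chr6:55037960-55037989, plus strand, starting 30 bases before the transcription start: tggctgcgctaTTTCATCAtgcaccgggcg
Iars1, chr13:49682126-49682155, plus strand, starting at base 8 of the transcript: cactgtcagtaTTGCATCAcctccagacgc
Tars1, chr15:11399655-11399684, minus strand, starting 15 bases before the transcription start: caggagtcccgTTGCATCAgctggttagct
Yars1, chr4:129189895-129189924, plus strand, starting at base 4 of the transcript: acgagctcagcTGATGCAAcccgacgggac

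The E-box letters CACGTG, a palindrome bound by MYC-MAX and related factors, occurred in 4 of the 12 cytosolic promoters (33.3%; Aars1, Farsb, Iars1 and Tars1) and in 1 of the 14 mitochondrial ones (7.14%; Ears2), against 7.15% of all promoters. No E-box overlapped a composite match in these genes. The 250 bases before the start of Lars2, the mitochondrial leucyl enzyme with the smallest p among the 35, held neither kind of letters and are shown for contrast. A match describes letters in this window and is not evidence of binding.
Lars2, chr9:123366677-123366926, plus strand: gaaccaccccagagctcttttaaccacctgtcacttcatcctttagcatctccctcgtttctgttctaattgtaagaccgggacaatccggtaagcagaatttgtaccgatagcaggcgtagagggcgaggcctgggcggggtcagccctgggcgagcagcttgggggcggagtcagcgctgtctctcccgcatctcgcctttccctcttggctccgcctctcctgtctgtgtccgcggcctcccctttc

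**Figure D1:**
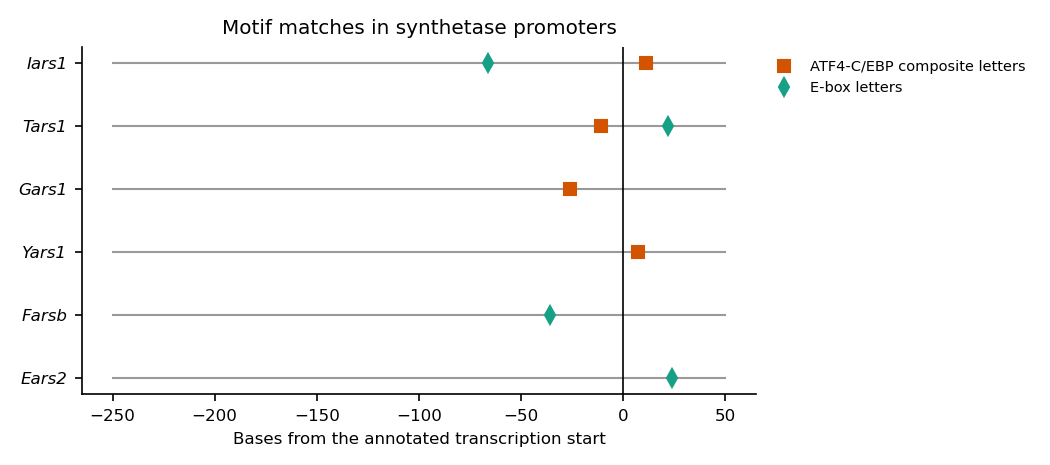
Position of the ATF4-C/EBP composite letters (squares) and the E-box letters (diamonds) in 6 of the 7 synthetase promoters that held either, with Aars1 not drawn, on a horizontal axis of bases from the annotated transcription start. Of those drawn, Iars1 and Tars1 held a composite match and an E-box each.

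The 35 mRNAs differed little between the groups. On the deposited scale the cytosolic enzymes were a few percent lower on balance in VC, and several mitochondrial enzymes were higher. None of the 19 cytosolic and none of the 16 mitochondrial enzymes passed limma's test at an adjusted p under 0.05, against 0.687% of the 13972 genes tested. That background divides into 0.429% called higher and 0.258% called lower. At an unadjusted p under 0.05 there were 4 cytosolic enzymes (Kars1, Gars1, Rars1 and Farsb, all lower in VC) and 3 mitochondrial enzymes (Lars2, Fars2 and Ears2, all higher in VC). These are 21.1% of the cytosolic and 18.8% of the mitochondrial enzymes, close to the 17.2% of all genes tested. All 35 passed the filter on low values.

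On the deposited scale the 2 compartments leaned opposite ways. In 8 of the 19 cytosolic genes (42.1%) all 3 VC values lay below all 3 control values, as they did in 11.6% of all genes tested. That share was 26.6% in the highest of 4 equal bins by mean level, which holds all 19 cytosolic genes. All 3 VC values lay above control in 1 cytosolic gene, Aars1 (5.26%), against 13.9% of all genes tested. Among the mitochondrial genes all 3 VC values lay above all 3 control values in 6 of 16 (37.5%) and below them in 0. Of all genes, 16.5% lay wholly above control in the second bin from the bottom and 18.2% in the third, which hold 10 and 5 of these 16. The median log2 fold change, on the log2(value + 1) scale as throughout, was -0.047 for the cytosolic genes and 0.075 for the mitochondrial genes, against 0.012 for all genes tested. In the top bin the median of all genes was -0.037. The sign for the cytosolic genes depends on the scale: with all libraries set to equal totals their median was 0.025 against 0.078 for all genes, and 1 gene in place of 8 lay wholly below control. With quantile normalization that number was 4, and 4 mitochondrial genes in place of 6 lay wholly above control, with a mitochondrial median of 0.037.

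**Figure D2:**
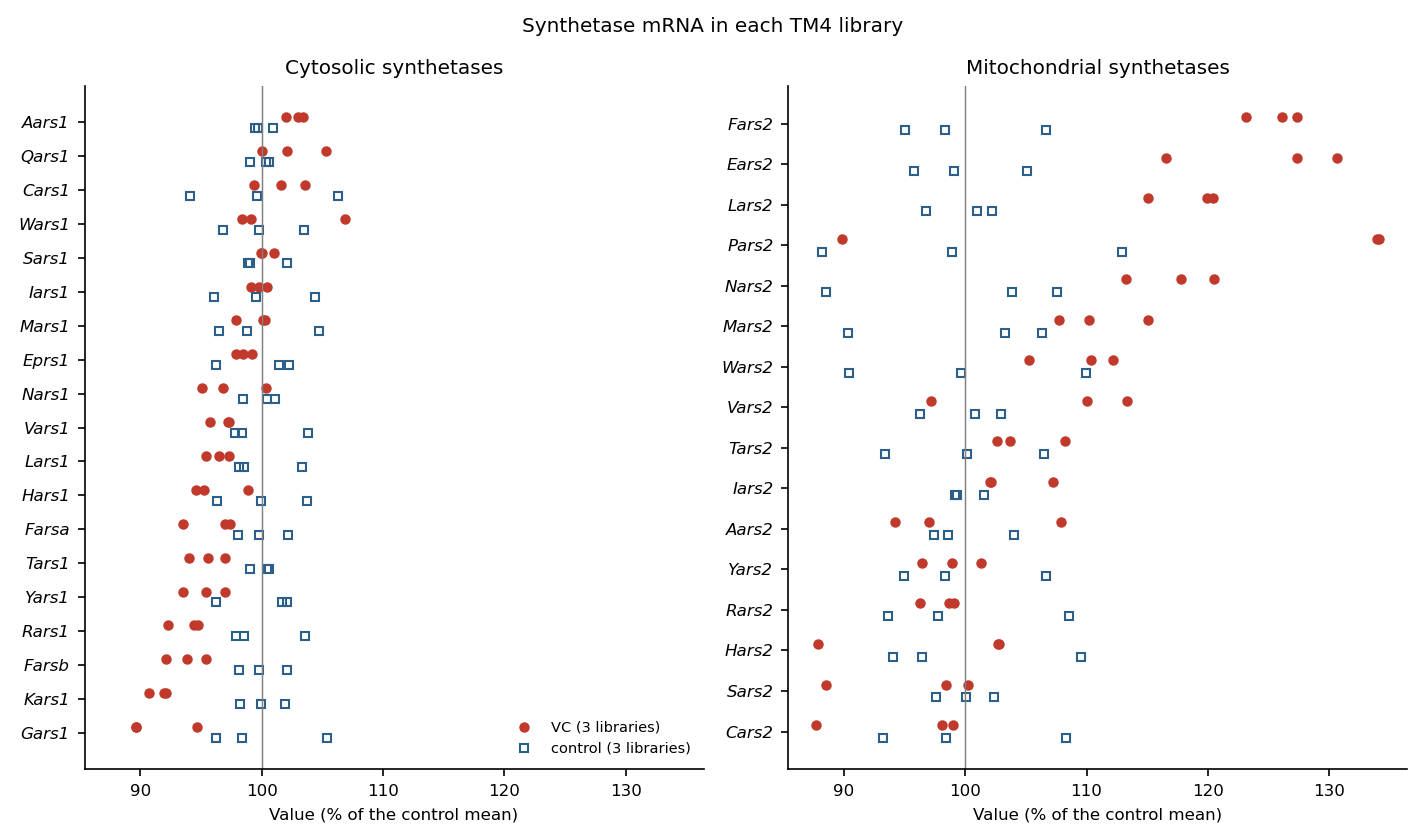
Value of each synthetase in each library as a percent of the control mean, for the 19 cytosolic (left) and 16 mitochondrial genes (right), with VC as filled circles and control as open squares, ordered by fold change. Most cytosolic points sit within 10% of the control mean, while the VC points of Fars2, Ears2 and Lars2 sit clear to the right of control.

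The genes that serve both compartments, Kars1 and Gars1, had the lowest fold changes among the 35. Kars1, lysyl-tRNA synthetase, was at 266, 265 and 262 in VC and at 283, 288 and 294 in control. Its groups did not overlap, and the VC values were tightly bunched. The mean was 264 ± 2.25 in VC and 288 ± 5.37 in control (SD, n = 3 each), which is -0.13 on the log2 scale with a standard error of 0.030 (limma adjusted p = 0.117). Standard errors follow the sign ± in the fold changes below. Gars1, glycyl-tRNA synthetase and the member with the highest level, was at 304, 288 and 288 in VC and at 316, 309 and 339 in control. All VC values lay below control, and control replicate 3 was the highest library. The log2 fold change was -0.13 ± 0.045 (limma adjusted p = 0.223), and it was -0.091 without control replicate 3. With equal totals Kars1 was at -0.054 and Gars1 at -0.057, so both stayed below 0 on that scale too.

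Of the 7 enzymes of the multisynthetase complex (Eprs1, Iars1, Kars1, Lars1, Mars1, Qars1 and Rars1), 6 had a fold change below 0 and 3 lay wholly below control (42.9%, against 11.6% of all genes tested and 26.6% of genes in the highest of 4 equal bins by mean level, which holds all 19 cytosolic genes). Rars1, arginyl-tRNA synthetase, was at 237, 232 and 238 in VC and at 246, 247 and 260.1 in control, with all VC values lower. Its log2 fold change was -0.091 ± 0.035 (limma adjusted p = 0.253). Lars1, leucyl-tRNA synthetase, which also reports leucine to the growth kinase mTORC1, was at 139, 141 and 142 in VC and at 144, 151 and 143 in control. These groups lay apart by a narrow margin, and the log2 fold change was -0.052 ± 0.034 (limma adjusted p = 0.469). Eprs1, which carries the glutamyl and the prolyl activity in 1 chain, was at 57.5, 57.2 and 58.0 in VC and at 59.7, 59.3 and 56.2 in control. Its groups overlapped, with control replicate 3 the lowest of the 6 libraries (limma adjusted p = 0.813). The remaining members of the complex overlapped as well, with Iars1 at -0.0024, Mars1 at -0.0078 and Qars1 at 0.034.

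The scaffolds of the complex had fold changes below 0 on the deposited scale, but with equal totals Aimp1 was at 0.014 and Aimp2 at 0.0097 while Eef1e1 was at -0.044. Aimp1 was at 44.0, 43.7 and 42.9 in VC and at 44.4, 44.5 and 47.1 in control. Aimp2 was at 111, 111 and 109 in VC and at 114, 111 and 120.2 in control. In both genes the VC values lay below control with a gap smaller than the spread within control. Eef1e1 was at 48.8, 44.3 and 45.6 in VC and at 48.6, 50.4 and 51.5 in control, and its groups overlapped. The log2 fold changes were -0.056, -0.062 and -0.12, with limma adjusted p-values of 0.506, 0.451 and 0.283.

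Among the 11 cytosolic enzymes outside the complex and outside the dual genes, 4 lay wholly below control (36.4%) and 1 wholly above (9.09%). In the highest bin by level 26.6% of all genes tested lay wholly below and 11.3% wholly above. Farsa and Farsb encode the alpha and beta chains of the phenylalanyl enzyme, which work as a tetramer. Farsb was at 111, 109 and 107 in VC and at 114, 116 and 118 in control, and Farsa was at 87.0, 90.6 and 90.2 in VC and at 91.2, 94.99 and 92.8 in control. Both chains were lower in all 3 VC libraries, with log2 fold changes of -0.092 ± 0.033 for Farsb (limma adjusted p = 0.23) and -0.059 ± 0.035 for Farsa (limma adjusted p = 0.43). Tars1, threonyl-tRNA synthetase, was at 174, 171 and 168 in VC and at 177, 179.9 and 180.2 in control, and its log2 fold change was -0.066 ± 0.030 (limma adjusted p = 0.316). Vars1, valyl-tRNA synthetase and so the enzyme that uses the amino acid named in the labels, was at 161, 164 and 164 in VC and at 165, 166 and 175 in control. The Vars1 groups lay apart by less than 1 unit, and the log2 fold change of -0.047 had a 95% confidence interval of -0.13 to 0.036 (limma adjusted p = 0.531). Without control replicate 3 it was -0.020.

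Aars1, alanyl-tRNA synthetase, was the single cytosolic gene with all VC values above control. It was at 175, 177 and 178 in VC and at 171, 173 and 171 in control, a log2 fold change of 0.039 ± 0.028 (limma adjusted p = 0.515). Exosc6 shares 14.3% of the Aars1 exon length on the same strand, so reads from the 2 genes may be hard to separate. The other overlapping enzymes outside the complex were Cars1 (0.023), Hars1 (-0.055), Nars1 (-0.038), Sars1 (0.0047), Wars1 (0.020) and Yars1 (-0.068), given as log2 fold changes. The 5 genes with a composite match in their promoter did not share a direction: Aars1 was at 0.039, Iars1 at -0.0024, Tars1 at -0.066, Yars1 at -0.068 and Gars1 at -0.13. Over all 19, no 95% confidence interval reached below -0.24 or above 0.14 on the log2 scale.

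The mitochondrial enzymes were measured at a lower level, with group means of 5.03 to 59.2 in VC and 4.13 to 49.96 in control, and with 93 to 5371 reads per gene and library. Lars2, mitochondrial leucyl-tRNA synthetase, had the highest level and the smallest p among them. It was at 57.5, 59.9 and 60.2 in VC and at 50.4, 51.1 and 48.4 in control. The groups were well apart, with a gap larger than the range within either. The mean was 59.2 ± 1.49 in VC and 49.96 ± 1.42 in control (SD, n = 3 each), 18.5% higher in VC. The log2 fold change of 0.24 ± 0.039 had a 95% confidence interval of 0.15 to 0.33, and the limma adjusted p of 0.0538 lay just above the threshold. It passed the threshold in 4 of 9 other settings, at an adjusted p of 0.0409 with a filter at 5, 0.0427 with equal totals, 0.0353 with limma's array weights and 0.00677 with limma-voom, and in none of the 6 fits without 1 library.

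Fars2, mitochondrial phenylalanyl-tRNA synthetase, a single chain unlike its cytosolic counterpart, had the highest fold change of the 35. It was at 8.82, 9.12 and 9.03 in VC and at 6.81, 7.64 and 7.04 in control. All VC libraries were above all control libraries, and the mean was 25.5% higher in VC, with 8.99 ± 0.154 in VC and 7.16 ± 0.429 in control (SD, n = 3 each). The log2 fold change was 0.29 ± 0.066 (limma adjusted p = 0.104), and limma-voom called it at an adjusted p of 0.0355. Nrn1 shares 8.72% of its exon length on the opposite strand, and whether the libraries kept strand is not stated. Ears2, mitochondrial glutamyl-tRNA synthetase, which also makes the glutamyl-tRNA that is later turned into glutaminyl-tRNA, was at 5.39, 4.81 and 5.26 in VC and at 4.34, 3.96 and 4.09 in control. These groups did not overlap either, on 162 to 228 reads per library. The log2 fold change was 0.26 ± 0.084 (limma adjusted p = 0.192).

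Another 3 mitochondrial enzymes lay wholly above control by smaller margins. Nars2, the asparaginyl enzyme, was at 5.06, 4.86 and 5.17 in VC and at 3.80, 4.46 and 4.62 in control, with control replicate 1 well below the other controls. Mars2, the methionyl enzyme, was at 6.22, 6.64 and 6.36 in VC and at 5.96, 6.14 and 5.22 in control, with control replicate 3 the lowest. Iars2, the isoleucyl enzyme, was at 20.9, 19.905 and 19.879 in VC and at 19.794, 19.4 and 19.3 in control. The Iars2 groups thus nearly touched, as did those of Mars2 (lowest VC value 6.215, highest control value 6.137). The log2 fold changes were 0.19 for Nars2, 0.13 for Mars2 and 0.051 for Iars2, with limma adjusted p-values of 0.343, 0.455 and 0.596. Each rested in part on 1 library: Nars2 was at 0.12 without control replicate 1, Mars2 at 0.071 without control replicate 3 and Iars2 at 0.028 without VC replicate 1. Rab3gap2 lies on the opposite strand across 22.9% of the Iars2 exon length.

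Vars2, mitochondrial valyl-tRNA synthetase, overlapped between the groups, with 11.4, 9.74 and 11.03 in VC and 9.65, 10.3 and 10.1 in control. Its log2 fold change of 0.085 had a 95% confidence interval of -0.085 to 0.26 (limma adjusted p = 0.585). Pars2, the prolyl enzyme, had a log2 fold change of 0.20 but the widest spread, with VC replicate 3 among the lowest libraries. The other overlapping enzymes were Wars2 (0.11), Tars2 (0.066), Aars2 (-0.0055), Yars2 (-0.014), Rars2 (-0.025), Hars2 (-0.031), Sars2 (-0.058) and Cars2 (-0.069), again as log2 fold changes. The highest upper bound of a 95% confidence interval among the 16 was 0.57, and the lowest lower bound was -0.25.

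**Figure D3:**
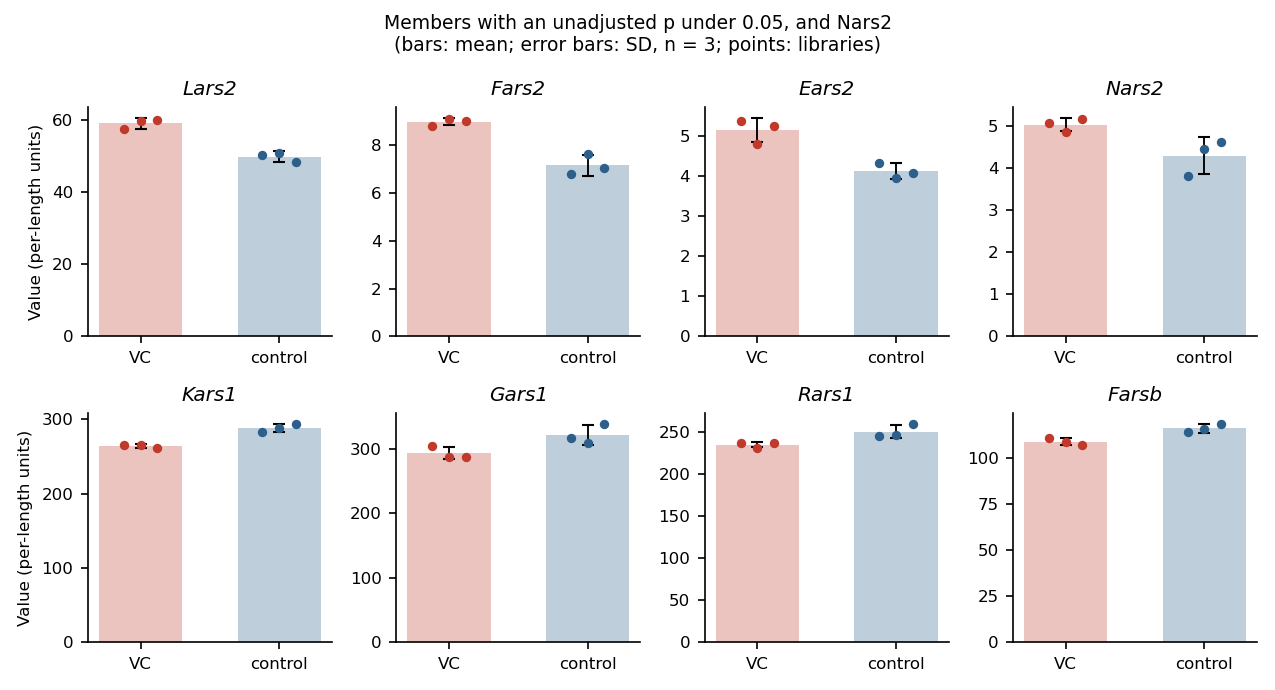
Value in each library (points), mean (bars, axis from 0) and SD (error bars, n = 3) in VC and control for the 7 members with an unadjusted p under 0.05 and for Nars2. The mitochondrial genes in the upper panels are higher in VC and the cytosolic genes in the lower panels are lower in VC, without overlap in any of the 8.

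For 13 amino acids a cytosolic and a mitochondrial gene of matching symbol were set side by side. In 10 of the 13 the mitochondrial gene had the higher fold change, with a median difference of 0.066 on the log2 scale. No such share was taken over pairs of other genes. In the 4 bins by mean level, the median of all genes tested was 0.042 in the second from the bottom and 0.024 in the third. It was -0.037 in the top bin, which holds all the cytosolic genes. The part of level in the pair differences was not tested. Phenylalanine was left out of the pairs (Fars2 at 0.29, Farsa at -0.059 and Farsb at -0.092). So were glutamate and proline (Ears2 at 0.26 and Pars2 at 0.20, with Eprs1 at -0.021 for both). Among the 13 pairs leucine had the widest difference, 0.29, with Lars2 at 0.24 and Lars1 at -0.052, and asparagine came next at 0.23. On the per-length scale the cytosolic mRNA was the more abundant of each pair, by a ratio of 2.38 (leucine) to 45.1 (asparagine) in VC and of 2.58 (tyrosine) to 54.2 (asparagine) in control. The valine ratio was 15.2 in VC and 16.8 in control. The 3 branched-chain enzymes had a median log2 fold change of 0.085 in mitochondria (Iars2, Lars2 and Vars2) and -0.047 in the cytosol (Iars1, Lars1 and Vars1).

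Summed over the members, the mitochondrial values were 8.27%, 8.30% and 8.24% of the cytosolic values in VC and 7.53%, 7.60% and 7.27% in control. This share is free of the scale given to a library, and the groups did not overlap. It is not free of differences between the groups that go with the level of a gene. The part of level in this share was not tested. With Lars2 left out, a choice made after its values were seen, the shares were 6.27%, 6.19% and 6.15% in VC and 5.81%, 5.88% and 5.68% in control, still without overlap. The cytosolic sum was 2881, 2848 and 2868 in VC and 2932, 2957 and 3029.8 in control. The mitochondrial sum was 238, 236 and 236 in VC and 221, 225 and 220.3 in control. Control replicate 3 held the highest of the 6 values for 11 of the 19 cytosolic genes but for 1 of the 16 mitochondrial genes. Without that library the medians were -0.035 for the cytosolic and 0.062 for the mitochondrial enzymes.

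Level and length moved with these differences. With the tested genes cut into 4 equal bins by mean level, all 19 cytosolic genes fell in the top bin, where the median log2 fold change of all genes was -0.037 and where 26.6% of all genes had VC values wholly below control. Of the mitochondrial genes, 10 fell in the second bin from the bottom, with a median of 0.042 for all genes there and 16.5% wholly above control, 5 in the third, and Lars2 in the top bin. Against the median of its own bin Lars2 thus lay on the other side of 0. In 4 such bins by exon length the median of all genes was -0.038, -0.013, 0.015 and 0.054 from short to long. No synthetase fell in the shortest bin, and 6 mitochondrial and 4 cytosolic genes fell in the longest. The part of level and length in the split between the compartments was not tested.

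**Figure D4:**
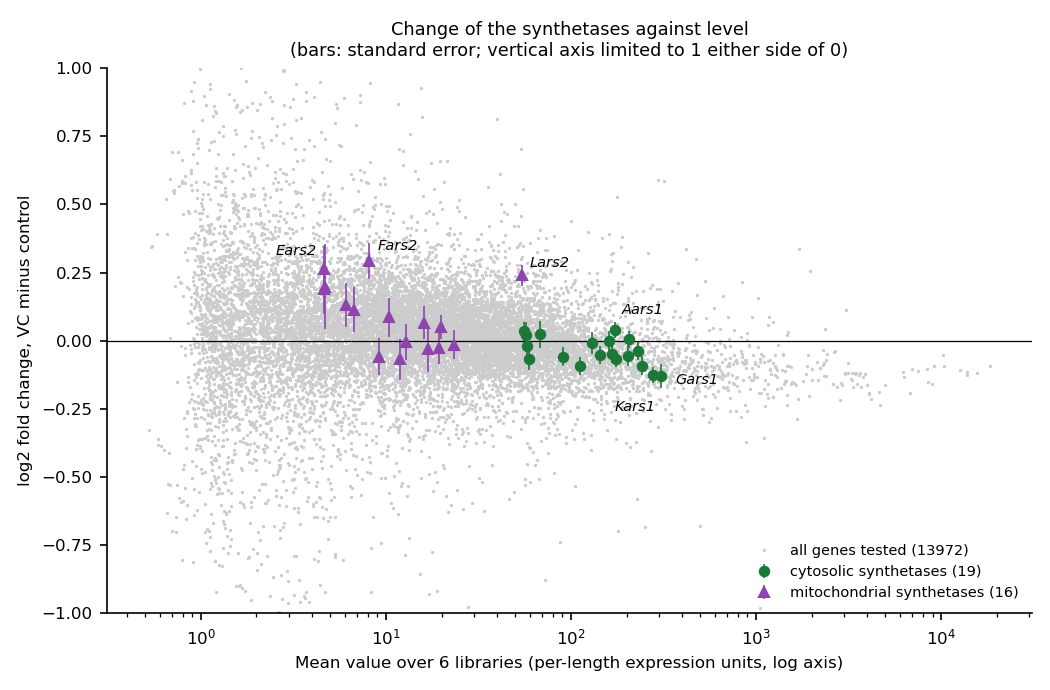
Log2 fold change (VC minus control, vertical axis limited to 1 either side of 0) against the mean value over the 6 libraries on a log axis, for all 13972 genes tested (grey), the 19 cytosolic (circles) and the 16 mitochondrial synthetases (triangles), with standard errors. The cytosolic genes sit at high levels around and below 0, where the grey points also lean below 0. Lars2 lies above 0 in the top bin by level, where 11.3% of all genes tested lay wholly above control.

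The pathways that sense uncharged tRNA and drive synthetase genes were read from the same fit, over 6 lists with 75 entries. Of these 74 were tested, 0 were called against 0.687% of all genes, and Aarsd1 fell below the filter. An unadjusted p under 0.05 was found for 18 (24.3%), against 17.2% of all genes tested. In the list of 13 GCN2 and eIF2 genes, 2 genes lay wholly above (15.4%) and 1 wholly below control (7.69%), near the 13.9% and 11.6% of all genes tested, around a median log2 fold change of 0.016. Impact, which restrains GCN2, was at 63.2, 61.9 and 65.8 in VC and at 51.9, 54.5 and 49.8 in control. It was 22.3% higher in VC with the groups well apart, and its log2 fold change of 0.29 ± 0.046 had a limma adjusted p of 0.0538 and passed the threshold in 4 of 9 other settings. Eif2ak4, which encodes GCN2, was at 14.7, 15.1 and 14.4 in VC and at 15.1, 13.1 and 12.1 in control, overlapping. Ppp1r15a, which directs the removal of phosphate from eIF2, had a log2 fold change of 0.22 (limma adjusted p = 0.157), and Eif2s2, the beta chain of eIF2, was at -0.14 (limma adjusted p = 0.143).

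In the list of 28 genes of ATF4 and its other targets, 8 lay wholly above control (28.6%, against 13.9% of all genes tested) and 2 wholly below (7.14%, against 11.6%), with a median log2 fold change of 0.053. Atf4 was at 442, 465 and 450.0 in VC and at 419, 418 and 448 in control, and its groups overlapped (limma adjusted p = 0.363). Ddit3, the stress transcription factor CHOP, was at 44.5, 42.6 and 41.5 in VC and at 34.5, 35.6 and 38.5 in control, with no overlap. Its log2 fold change was 0.24 ± 0.053 (limma adjusted p = 0.102), and it passed with equal totals at an adjusted p of 0.0293 and with array weights at 0.0451. It lies on the strand opposite Mars1, with which it shares 68 bases of exon. Stc2, a secreted glycoprotein, was at 0.17 (limma adjusted p = 0.107) and Slc38a2, a carrier of small neutral amino acids, at 0.14 (limma adjusted p = 0.133). Slc7a5, the carrier that brings in valine, leucine and isoleucine, lay the other way at -0.13 (limma adjusted p = 0.13). In this list 18 genes lay above 0 and 10 below. An unadjusted limma p under 0.05 was found for 9 of the 28 (32.1%), against 17.2% of all genes tested. On the deposited scale only Aars1 among the 5 synthetases with a composite match lay above 0. With equal totals Aars1 was at 0.11, Iars1 at 0.070, Tars1 at 0.0064, Yars1 at 0.0029 and Gars1 at -0.057. The median of all genes was 0.078 on that scale. Only 12 of the 19 cytosolic genes had a promoter to search. The part of ATF4 in these values was not tested.

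MYC raises synthetase genes through E-boxes, and its list held 7 tested genes, of which 3 lay wholly above control (42.9%) and 1 wholly below (14.3%), against 13.9% and 11.6% of all genes tested. Myc itself was at 138, 147 and 152 in VC and at 148, 147 and 155 in control, overlapping (limma adjusted p = 0.656). Among the MAX partners that oppose MYC, Mnt was at 0.23 (limma adjusted p = 0.192), Mxd4 at 0.16 (limma adjusted p = 0.323) and Mxd1 at 0.10 (limma adjusted p = 0.623), while Mxd3 was at -0.29 (limma adjusted p = 0.176). The list of 9 elongation factors had 4 genes wholly below control (44.4%, against 11.6% of all genes tested and 26.6% of those in the top bin by level) and 0 above, with a median of -0.047. These were Eef1d (-0.12), Eef1a1 (-0.091), Tufm (-0.058) and Eef2 (-0.039), with limma adjusted p-values of 0.263 to 0.599. The sign turned for 3 of them with another scaling: Eef2 was at 0.033 and Tufm at 0.014 with equal totals, and Eef2 at 0.086 and Eef1a1 at 0.020 with quantile normalization. In the list of scaffolds and editing factors Ankrd16, a cofactor of alanyl-tRNA synthetase that captures wrongly activated serine in mouse, was at 10.5, 9.88 and 11.004 in VC and at 9.22, 8.87 and 8.01 in control, a log2 fold change of 0.24 (limma adjusted p = 0.176). Of the 8 genes that help charge mitochondrial and selenocysteine tRNAs, only Gatc, a subunit of the enzyme that makes mitochondrial glutaminyl-tRNA, had groups apart, at -0.13 (limma adjusted p = 0.23).

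**Figure D5:**
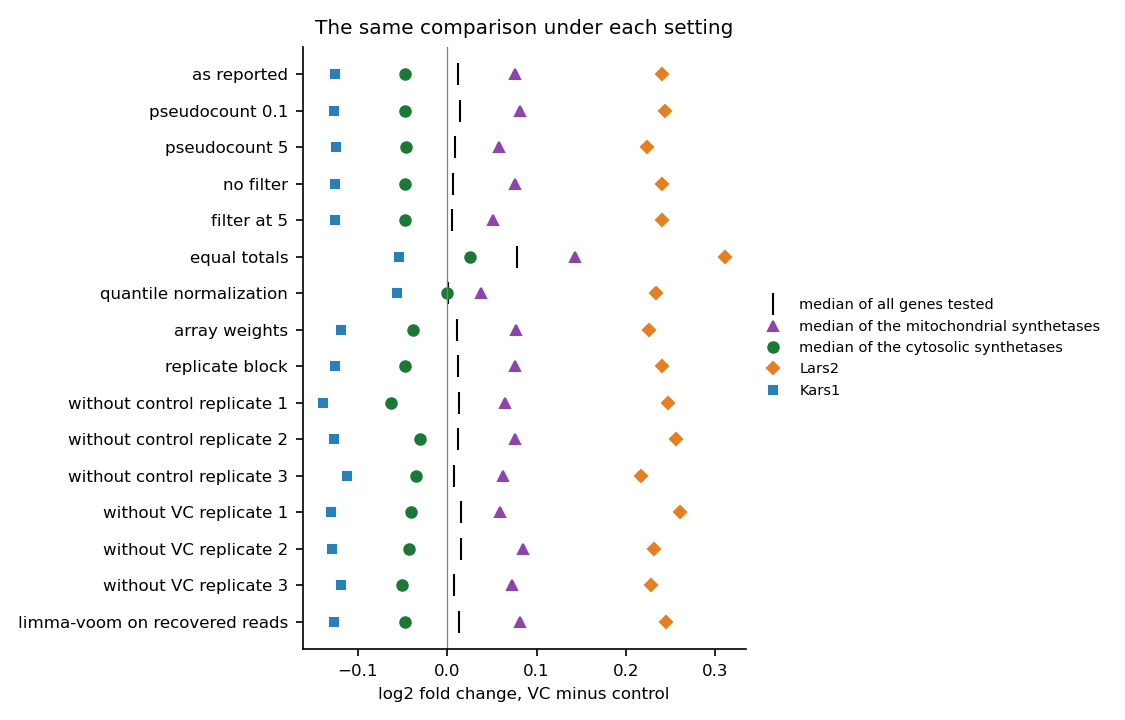
Log2 fold change (VC minus control) under each setting for Lars2, Kars1, the median of the mitochondrial enzymes, the median of the cytosolic enzymes and the median of all genes tested. The order of these 5 is the same under each setting plotted, while equal totals shifts all of them to the right and puts the cytosolic median at 0.025.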

How the data were processed

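Trizol RNA of TM4 cells went into TruSeq libraries, per the labels' protocols; strand is not stated. Reads were aligned with HISAT2 to GRCm39, per the submitters' processing notes; the counter and annotation release were not given in the sources used here. Each gene has a deposited signal value of 0 or more, on a transcripts-per-million scale times 1 factor per library, with TMM scaling named in the name of the authors' table. All 6 columns were matched to samples by the group letter and number in their names. Symbols for 52133 of 55414 identifiers and exon lengths came from GENCODE M21 on GRCm38, an earlier build, so coordinates are given only for RefSeq promoters of GRCm38.p6. Value times exon length gave whole multiples of 1 read's worth for 98.7% to 98.9% of values per library, within 0.1 read; these reads give depth and enter limma-voom only.

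The filter asked for values of at least 1 in 3 or more libraries, which 13972 genes passed. Log2(value + 1) was compared, VC minus control, with limma 3.58.1 (R 4.3.3), with an intensity trend and Benjamini-Hochberg adjustment over all genes, two-sided, at a threshold of 0.05. The procedure was tested on simulated data. Lists are described by counts and medians, without a test. The members and lists were chosen with earlier results of these data known. Library values are given for members whose groups did not overlap and for Vars1, Vars2, Kars1, Gars1 and Eprs1; named from each related list are up to 4 genes without overlap with the smallest p, and Atf4, Eif2ak4, Myc, Aimp1, Aimp2 and Eef1e1. Proteins were not compared here, and the promoter sequence of Aars1 is not reported here. Alternatives changed the pseudocount, filter, scaling, library weights, replicate block, limma-voom and the libraries included.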

Additional observations from a re-analysis of the deposited data

How the results depend on the processing

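Over all genes, 96 calls became 30 without a filter, 183 with a filter at 5, 217 with equal totals, 254 with array weights and 548 with limma-voom, and 0 to 82 without 1 library (82 without control replicate 3). With the replicate number as a block there were 0 calls by limma, with 2039 genes at an unadjusted p under 0.05. Deviations of same-numbered libraries correlated at -0.0186, -0.0115 and 0.00506. No pairing by number was seen, but so few libraries cannot exclude it. Calls were 62.5% higher in VC as reported, 83.9% with equal totals and 71.9% with quantile normalization. The cytosolic enzymes had 0 calls under every setting; the mitochondrial enzymes had 1 with a filter at 5, with equal totals and with array weights, and 2 with limma-voom, and the related lists had 1 with a filter at 5, 2 with equal totals, 2 with array weights and 1 with limma-voom. Without 1 library all 3 had 0. The cytosolic median was 0.025 with equal totals, 7.4e-05 with quantile normalization and -0.063 to -0.030 without 1 library; the mitochondrial median was 0.14 with equal totals, 0.037 with quantile normalization, 0.051 with a filter at 5 and 0.059 to 0.085 without 1 library. Cytosolic genes wholly below control numbered 1 with equal totals, 4 with quantile normalization and 8 to 11 without 1 library, and mitochondrial genes wholly above control numbered 7 with equal totals, 4 with quantile normalization and 6 to 8 without 1 library. These last 2 counts, and the stricter motif letters (4 genes), were added after the data were seen.

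Several fold changes near 0 changed sign. With equal totals, which puts the median of all genes at 0.078, the values were Eprs1 0.051, Farsa 0.013, Hars1 0.017, Iars1 0.070, Lars1 0.020, Mars1 0.064, Nars1 0.034, Tars1 0.0064, Vars1 0.025, Yars1 0.0029, Aars2 0.062, Hars2 0.038, Rars2 0.044, Sars2 0.0072 and Yars2 0.055. With quantile normalization they were Iars1 0.050, Lars1 7.4e-05, Mars1 0.031, Nars1 0.041 and Vars1 0.0050, and with array weights Mars1 0.012 and Hars2 0.0096; the cause was not tested. Without 1 library the ranges that crossed 0 were Cars1 -0.019 to 0.068, Iars1 -0.031 to 0.029, Mars1 -0.033 to 0.026, Sars1 -0.0033 to 0.020, Wars1 -0.017 to 0.044, Aars2 -0.059 to 0.031, Hars2 -0.071 to 0.040, Rars2 -0.069 to 0.033 and Yars2 -0.049 to 0.031. Outside the fits that leave out a library, 285 other values of single members kept direction and side of the threshold and 5 passed it, and 7 medians of related lists moved by more than the spread between replicates. Other values that 1 library moved were Pars2, at 0.12 to 0.36, Vars2, at 0.045 to 0.15, Lars1, at -0.066 to -0.029, and Eprs1, at -0.047 to -0.0044. Reads per library ran from 93 (Pars2) to 5371 (Lars2) for the mitochondrial enzymes.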
